A study of Mus musculus with 12 samples.

Results

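Matr3, Hnrnpa1, Hnrnpa2b1, Kif5a, Tuba4a, Pfn1 and Vcp are mouse orthologues of genes in which mutations cause or raise the risk of human amyotrophic lateral sclerosis (ALS). They were taken from the table by gene symbol. They are 7 of the 45906 genes in the table, and each of the 7 was among the 20155 genes that passed the filter on low counts. Poly-A RNA of total spinal cord from 12 mice of 7 months, all on a C57BL/6 background, had been sequenced in 4 genotypes of 3 mice each. These were Plekhg5+/+ mice, Plekhg5-/- mice that lack the guanine exchange factor Plekhg5, Plekhg5+/+ SOD1-G93A mice that carry a transgene for the ALS mutant of human SOD1, and Plekhg5-/- SOD1-G93A mice with both changes. According to the study, the transgenic line is the low-copy SOD1-G93A model, in which disease progresses slowly. How the Plekhg5 allele was made and which promoter drives the transgene are not given in the sources used here. Total counts per library were between 30415643 and 38743628. Plekhg5 was at 22.9 ± 3.08 CPM, the count scaled to the size of the library (mean ± SD, n = 3), in Plekhg5+/+, 3.99 ± 0.712 in Plekhg5-/-, 22.4 ± 2.19 in Plekhg5+/+ SOD1-G93A and 4.26 ± 0.413 in Plekhg5-/- SOD1-G93A mice. Human SOD1 was at 4421 to 5638 CPM in the 6 libraries with the transgene and at most 5.47 CPM in the others, so these genes matched the labels.

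In motoneurons, the cells that are lost in ALS, a single axon can run the length of a limb, and its upkeep depends on RNA packaging, on microtubule transport and on the removal of misfolded protein. Matr3, a protein of the nuclear matrix, and the heterogeneous nuclear ribonucleoproteins Hnrnpa1 and Hnrnpa2b1 bind RNA and take part in splicing and in RNA granules. Kif5a is a neuronal heavy chain of kinesin-1, which carries cargo along axonal microtubules away from the cell body. Tuba4a is an alpha-tubulin of those microtubules, and Pfn1 (profilin 1) binds actin monomers and delivers them to growing filaments. Vcp is an ATPase that pulls ubiquitin-marked proteins out of complexes and membranes for degradation and takes part in autophagy.

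Reads of 75 bases can be assigned to a gene only where its sequence is not repeated elsewhere, and the members differed in this respect. In the annotated reference transcripts (GENCODE, build GRCm38.p6), 55.7% of the 75-base windows of the Vcp transcript were also found in Vcp-rs, a related sequence on the X chromosome. For Hnrnpa1 the percentage was 44.4%, in 13 other annotated genes led by Gm10052. For Matr3 it was 26.9%, of which most lay in the overlapping gene Gm28285, while it was 0% for Hnrnpa2b1, Kif5a, Tuba4a and Pfn1. The coding sequence of Vcp (2421 bases) was identical to the annotated transcript of Vcp-rs at 2398 of 2406 aligned bases (99.7%). That of Hnrnpa1 has 1122 bases and matched the shorter transcript of Gm10052 at 960 of 960 aligned bases. The remaining Hnrnpa1 bases had no counterpart there, and the longest unbroken identical run was 749 bases. In contrast, Tuba4a matched its relative Tuba1a at 1148 of 1347 bases (85.2%). The following stretch of one read length, bases 301 to 375 of the Vcp coding sequence from 5′ to 3′, is the same in Vcp and Vcp-rs and shows that a read from it has a second match. No base is in capitals, because the pair has no difference in this stretch.
Vcp and Vcp-rs: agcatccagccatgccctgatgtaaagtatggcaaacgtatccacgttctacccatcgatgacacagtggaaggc

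Reads with several matches, and reads on overlapping genes, had been counted as fractions. A count that is not whole (by more than 0.001) therefore marks reads of either kind. Such counts were present for Hnrnpa1 in 11 of the 12 libraries, for Matr3, Hnrnpa2b1 and Vcp in 10, for Kif5a and Tuba4a in 6 and for Pfn1 in 3. Genes with 0% of windows in other annotated transcripts thus had such reads as well. The windows were sought in annotated transcripts only, whereas reads had been mapped to the genome, and where these reads also matched was not tested. The row of Vcp-rs held 3219 to 4297 counts per library, which was 26.7 to 27.4% of the summed counts of Vcp and Vcp-rs. The 9 other rows of the table that share windows with Hnrnpa1 together held 35.2 to 37.8% of the sum with Hnrnpa1. The levels of Vcp and Hnrnpa1 are therefore uncertain, whereas these shares differed little between libraries. The level of Matr3 is uncertain as well, because of the windows it shares with Gm28285, and no sum with that gene was computed.

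Per kb of exon, Kif5a was the most abundant of the 7 genes, with 265 ± 19.97 CPM per kb (mean ± SD, n = 12 libraries of the 4 genotypes together), above 99.4% of the genes tested. Next in order came Hnrnpa2b1 with 96.0 ± 7.07, Tuba4a with 95.4 ± 7.39, Matr3 with 94.0 ± 4.03 and Vcp with 89.4 ± 2.47 CPM per kb. The first 3 of these differed by less than their SD, whereas Vcp lay below Matr3 by more than either SD. This order turned for Vcp when the counts of Vcp-rs were added at the same exon length, since the sum was at 123 ± 3.49 CPM per kb, above Hnrnpa2b1, Tuba4a and Matr3. Hnrnpa1 with 45.9 ± 2.81 and Pfn1 with 39.5 ± 5.14 CPM per kb were lowest, and still above 93.3% and 92.0% of the genes tested. With its 9 related rows added, Hnrnpa1 was at 72.2 ± 4.04 CPM per kb, in the same place in the order. Each member was thus deeply covered, with 1975 to 2980 counts per library for Pfn1, the least counted, and 65921 to 83740 for Kif5a. The ranks per kb depend on the length used, here the combined exon length of each gene. This was 1847 bases for Pfn1, 4276 for Hnrnpa2b1 and 4472 for Matr3. The annotated transcripts examined above had 861, 1728 and 6262 bases, and the order by those lengths was not tested.

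**Figure D1:**
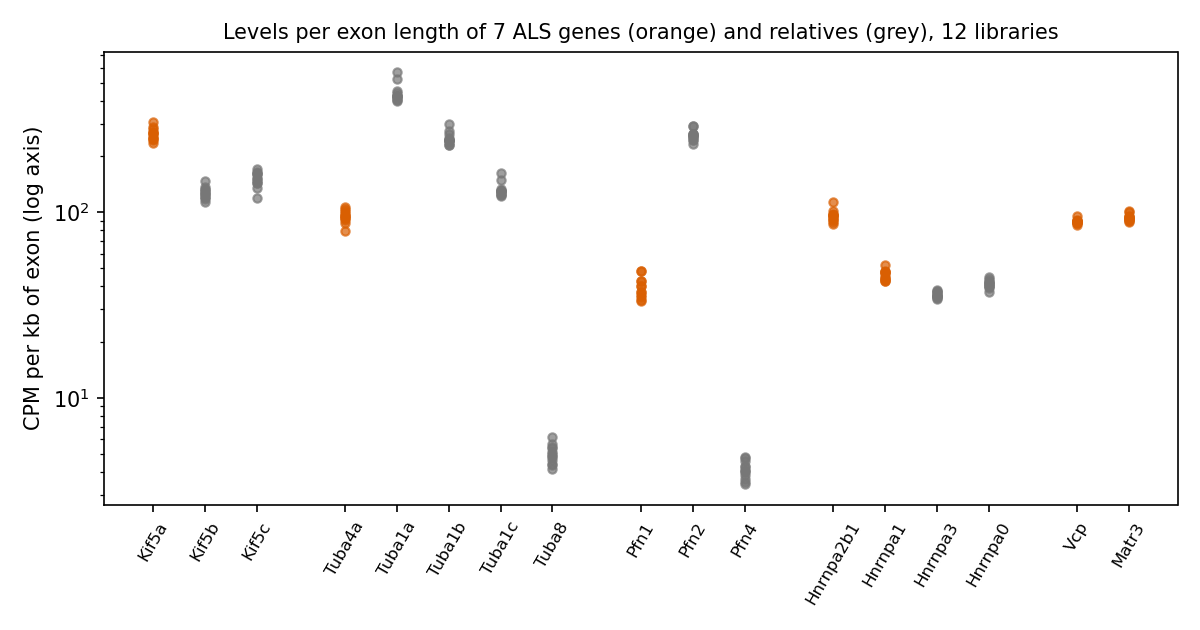
Levels of the 7 genes (orange) and of close relatives (grey) in CPM per kb of exon on a log axis, with 1 point for each of the 12 libraries. Kif5a lies above Kif5b and Kif5c, whereas Tuba4a lies below Tuba1a and Pfn1 lies below Pfn2.

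By the same combined exon length, the members held different ranks within their families, as the plot of levels per exon length shows. Kif5a exceeded the other kinesin-1 heavy chains, Kif5c (151 CPM per kb) and Kif5b (128 CPM per kb). It stood just below Dynll2, a dynein light chain and the most abundant of the other transport genes with 282 CPM per kb, and above the synaptic vesicle kinesin Kif1a with 168. Tuba4a was lower than the alpha-tubulin Tuba1a (442 CPM per kb) and than the most abundant beta-tubulins, Tubb4a (562) and Tubb3 (308). Hnrnpa2b1 was similar to Hnrnpk (97.7 CPM per kb), the highest of the other hnRNP genes, which was followed by the poly(C)-binding proteins Pcbp1 (78.0) and Pcbp2 (58.7). Pfn1 was much lower than the neuronal profilin Pfn2 (261 CPM per kb). It was lower still relative to Tmsb4x (495), which holds actin monomers in reserve, to the filament-severing Cfl1 (479) and to the actin gene Actb (340).

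Of the 7 genes, 0 passed the threshold (adjusted p under 0.05, edgeR's quasi-likelihood test with Benjamini-Hochberg adjustment) when Plekhg5+/+ SOD1-G93A mice were compared with Plekhg5+/+ mice, in which 2.47% of all genes tested did. In the same comparison, 4 of the 7 had an unadjusted p under 0.05, against 18.2% of all genes tested. These were Pfn1 with a higher level in SOD1-G93A mice (10.6% of all genes tested were higher by this measure) and Tuba4a, Kif5a and Hnrnpa2b1 with lower ones (7.51%). In 1 of the 7 genes, Tuba4a, the 3 SOD1-G93A libraries did not overlap with the 3 others and lay below them. Of all genes tested, 20.6% did not overlap, and 9% lay below. DESeq2 also called 0 of the 7, whether or not its prior on fold changes was used. The sizes of these differences are given below with 95% intervals, because a p over the threshold does not show that levels were equal.

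**Figure D2:**
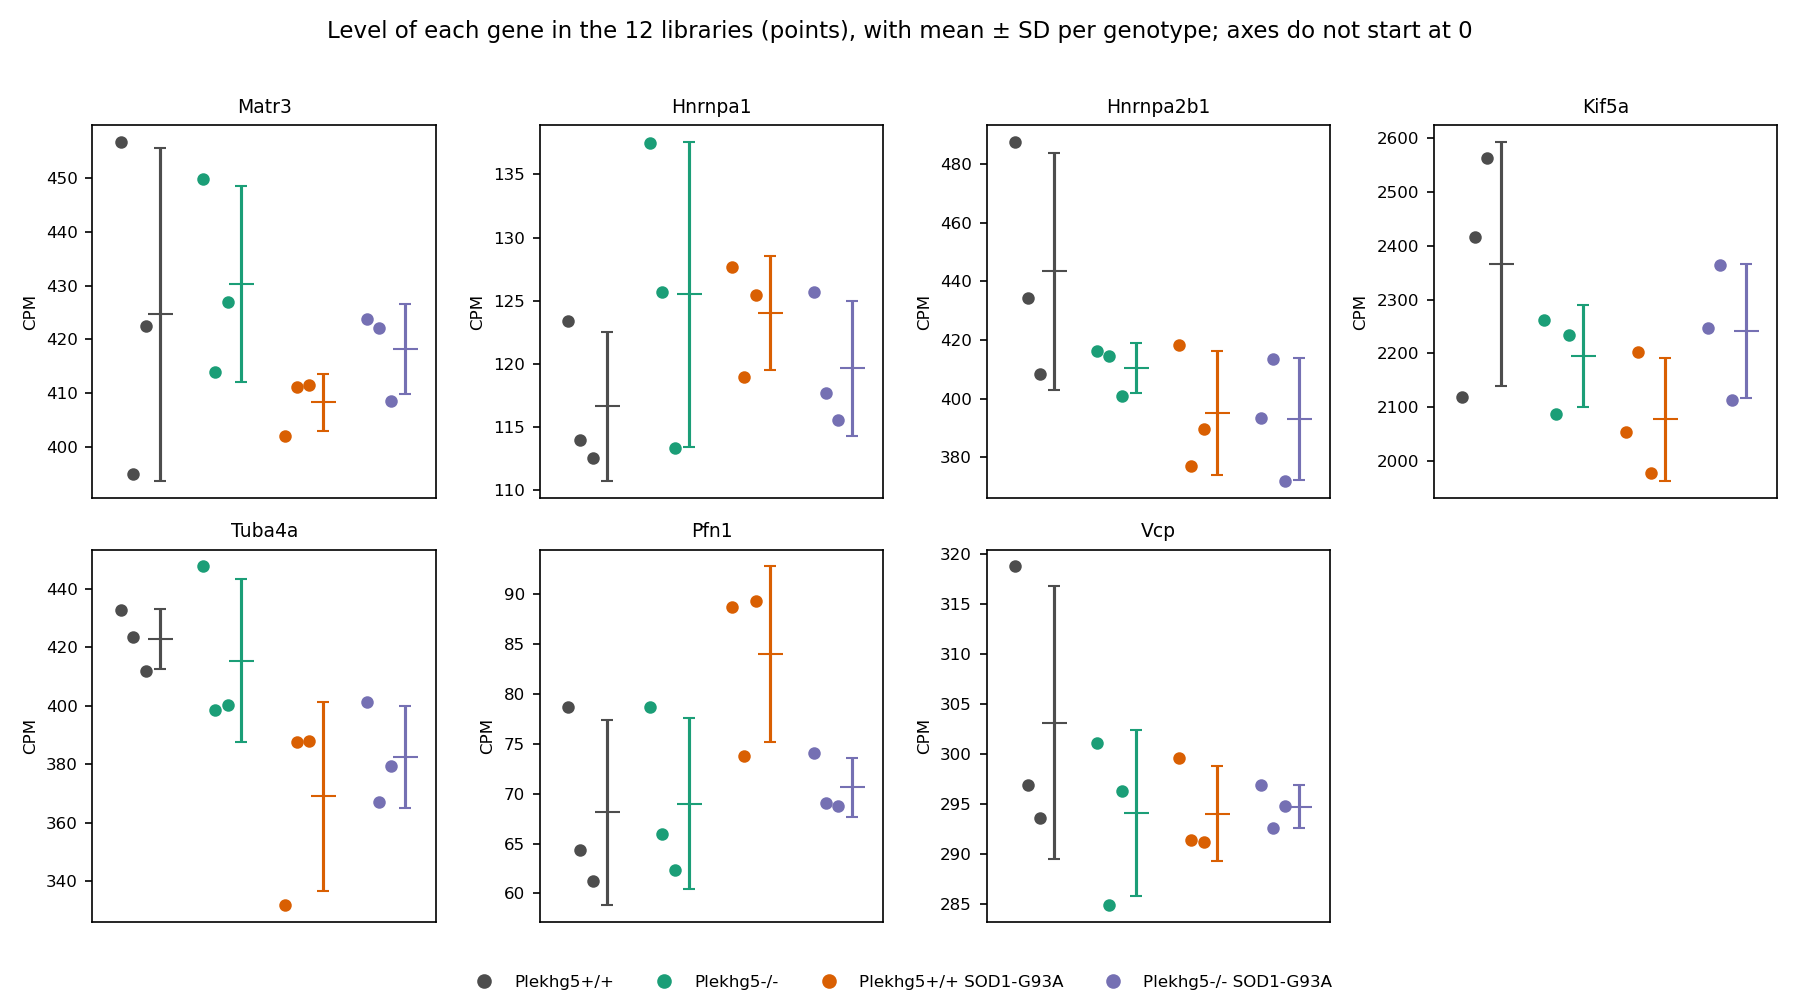
CPM of each gene in the 12 libraries (points), with the mean ± SD of the 3 mice of each genotype (bars). The vertical axes do not start at 0. Tuba4a is the gene whose Plekhg5+/+ SOD1-G93A libraries (332 to 388 CPM) all lie below the Plekhg5+/+ libraries (412 to 433 CPM), and for Pfn1 the Plekhg5+/+ SOD1-G93A group has the highest mean.

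The largest difference was that of Pfn1 (gene 18643, chr11:70651844-70656799, minus strand), the actin monomer binder. It had 78.7, 64.4 and 61.3 CPM in the Plekhg5+/+ libraries 1 to 3, 78.7, 66.0 and 62.3 CPM in Plekhg5-/-, 88.8, 73.8 and 89.4 CPM in Plekhg5+/+ SOD1-G93A and 74.1, 69.1 and 68.8 CPM in Plekhg5-/- SOD1-G93A. Libraries 1 and 3 of Plekhg5+/+ SOD1-G93A were the highest of all 12, whereas library 2 overlapped with the controls. With the transgene, Pfn1 was 23.3% higher in Plekhg5+/+ mice (95% interval 4.56 to 45.4%, log2 fold change 0.30 ± 0.11 SE, edgeR unadjusted p = 0.0168, adjusted p = 0.163). Among the 22 alternative settings and left-out libraries the log2 fold change was 0.22 to 0.42 and the adjusted p 0.0726 to 0.417. In Plekhg5-/- mice the transgene made a difference of 0.03 on the log2 scale (interval -0.20 to 0.27). Loss of Plekhg5 made a difference of 0.02 (-0.22 to 0.26) without the transgene. With the transgene, Pfn1 was 15.9% lower without Plekhg5 (log2 fold change -0.25, interval -0.49 to -0.01, edgeR unadjusted p = 0.0406, adjusted p = 0.559). This value shares its Plekhg5+/+ SOD1-G93A libraries with the higher level in the first comparison. The interaction, which is the difference between the transgene's effects without and with Plekhg5, was -0.27 on the log2 scale (interval -0.61 to 0.07, adjusted p = 0.602).

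Tuba4a (gene 22145, chr1:75214972-75221261, minus strand), the alpha-tubulin, had 433, 424 and 412 CPM in Plekhg5+/+, 448, 398 and 400 CPM in Plekhg5-/-, 332, 388 and 388 CPM in Plekhg5+/+ SOD1-G93A and 401, 367 and 379 CPM in Plekhg5-/- SOD1-G93A. The Plekhg5+/+ SOD1-G93A libraries were all lower than the Plekhg5+/+ libraries, and library 1 was the lowest of the 12. The level was 12.7% lower (interval 2.67 to 21.7% lower, log2 fold change -0.20 ± 0.07 SE, edgeR adjusted p = 0.172). Without Plekhg5+/+ SOD1-G93A library 1 the log2 fold change was -0.12 (adjusted p = 0.491, against a range of 0.0951 to 0.491 over the alternatives). In Plekhg5-/- mice the difference with the transgene was -0.12 (interval -0.28 to 0.04), and the groups overlapped. The effect of Plekhg5 loss was -0.03 (-0.18 to 0.13) without and 0.05 (-0.11 to 0.21) with the transgene, and the interaction was 0.08 (-0.14 to 0.30).

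Kif5a (gene 16572, chr10:127225695-127266348, minus strand), the axonal kinesin, had 2119, 2416 and 2564 CPM in Plekhg5+/+, 2263, 2087 and 2234 CPM in Plekhg5-/-, 2053, 2203 and 1977 CPM in Plekhg5+/+ SOD1-G93A and 2248, 2364 and 2114 CPM in Plekhg5-/- SOD1-G93A. Libraries 2 and 3 of Plekhg5+/+ were the highest of the 12, while library 1 lay within the range of the SOD1-G93A mice. With the transgene Kif5a was 12.2% lower in Plekhg5+/+ mice (interval 1.66 to 21.6% lower, log2 fold change -0.19 ± 0.08 SE, edgeR adjusted p = 0.209). In Plekhg5-/- mice this difference was 0.03 (interval -0.13 to 0.19). Plekhg5 loss made a difference of -0.11 (-0.27 to 0.05) without the transgene and 0.11 (-0.05 to 0.27) with it. The interaction of 0.22 (interval -0.01 to 0.45) had the smallest p of the 7 genes (edgeR unadjusted p = 0.062, adjusted p = 0.559).

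Hnrnpa2b1 (gene 53379, chr6:51460434-51470048, minus strand), the RNA-binding protein of the A2 and B1 ribonucleoproteins, had 488, 434 and 408 CPM in Plekhg5+/+, 416, 415 and 401 CPM in Plekhg5-/-, 418, 377 and 390 CPM in Plekhg5+/+ SOD1-G93A and 393, 414 and 372 CPM in Plekhg5-/- SOD1-G93A. The groups overlapped in every comparison, and the highest library was library 1 of Plekhg5+/+. With the transgene the level was 10.9% lower in Plekhg5+/+ mice (interval 0.866 to 19.9% lower, log2 fold change -0.17 ± 0.07 SE, edgeR adjusted p = 0.236). Without library 1 of Plekhg5+/+ the log2 fold change was -0.09 (adjusted p = 0.448, against a range of 0.105 to 0.448 over the alternatives). The edgeR unadjusted p was 0.0362 in the main fit, 0.0634 with Y-linked transcripts as a covariate and 0.0594 with the 2 genotypes alone. It was 0.182 without Plekhg5+/+ library 1, and 0.0680 and 0.0796 without Plekhg5+/+ SOD1-G93A libraries 2 and 3. In the remaining alternatives, including DESeq2, the unadjusted p was under 0.05. In Plekhg5-/- mice the difference was -0.06 (interval -0.22 to 0.09). Plekhg5 loss made a difference of -0.11 (-0.27 to 0.04) without the transgene and -0.01 (-0.16 to 0.15) with it.

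The other RNA-binding members had smaller differences. Hnrnpa1 (gene 15382, chr15:103239943-103246698, plus strand), which shares its reads with pseudogenes as shown above, had 123, 114 and 113 CPM in Plekhg5+/+, 137, 126 and 113 CPM in Plekhg5-/-, 128, 119 and 125 CPM in Plekhg5+/+ SOD1-G93A and 126, 118 and 116 CPM in Plekhg5-/- SOD1-G93A. Each pair of genotypes overlapped. The log2 fold change with the transgene was 0.09 (interval -0.07 to 0.25) in Plekhg5+/+ and -0.07 (-0.23 to 0.09) in Plekhg5-/- mice, and that with Plekhg5 loss was 0.11 (-0.05 to 0.26) without and -0.05 (-0.21 to 0.11) with the transgene. When the counts of the 9 related rows were added to those of Hnrnpa1, the first of these values was 0.08 (adjusted p = 0.580).

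Matr3 (gene 17184, chr18:35562158-35592045, plus strand), the nuclear matrix protein, had 457, 395 and 422 CPM in Plekhg5+/+, 450, 414 and 427 CPM in Plekhg5-/-, 402, 411 and 412 CPM in Plekhg5+/+ SOD1-G93A and 424, 422 and 409 CPM in Plekhg5-/- SOD1-G93A. The Plekhg5+/+ libraries spanned the range of all the others, so that no genotype stood apart. The log2 fold changes were -0.06 (interval -0.19 to 0.07) and -0.04 (-0.17 to 0.09) with the transgene in Plekhg5+/+ and Plekhg5-/- mice, and 0.02 (-0.11 to 0.15) and 0.03 (-0.10 to 0.17) with Plekhg5 loss without and with the transgene.

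Vcp (gene 269523, chr4:42979964-43000507, minus strand), the segregase ATPase, varied least. It had 319, 297 and 294 CPM in Plekhg5+/+, 301, 285 and 296 CPM in Plekhg5-/-, 300, 291 and 291 CPM in Plekhg5+/+ SOD1-G93A and 297, 293 and 295 CPM in Plekhg5-/- SOD1-G93A. Apart from library 1 of Plekhg5+/+, the libraries lay between 285 and 301 CPM. The log2 fold change with the transgene was -0.04 (interval -0.16 to 0.07) in Plekhg5+/+ mice and 0.003 (-0.11 to 0.11) in Plekhg5-/- mice. With Plekhg5 loss it was -0.04 (-0.16 to 0.07) without and 0.003 (-0.11 to 0.11) with the transgene. The interval of the first of these values runs from 10.2% lower to 4.81% higher. When the counts of Vcp-rs were added, the first of these values was -0.06 (adjusted p = 0.615).

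**Figure D3:**
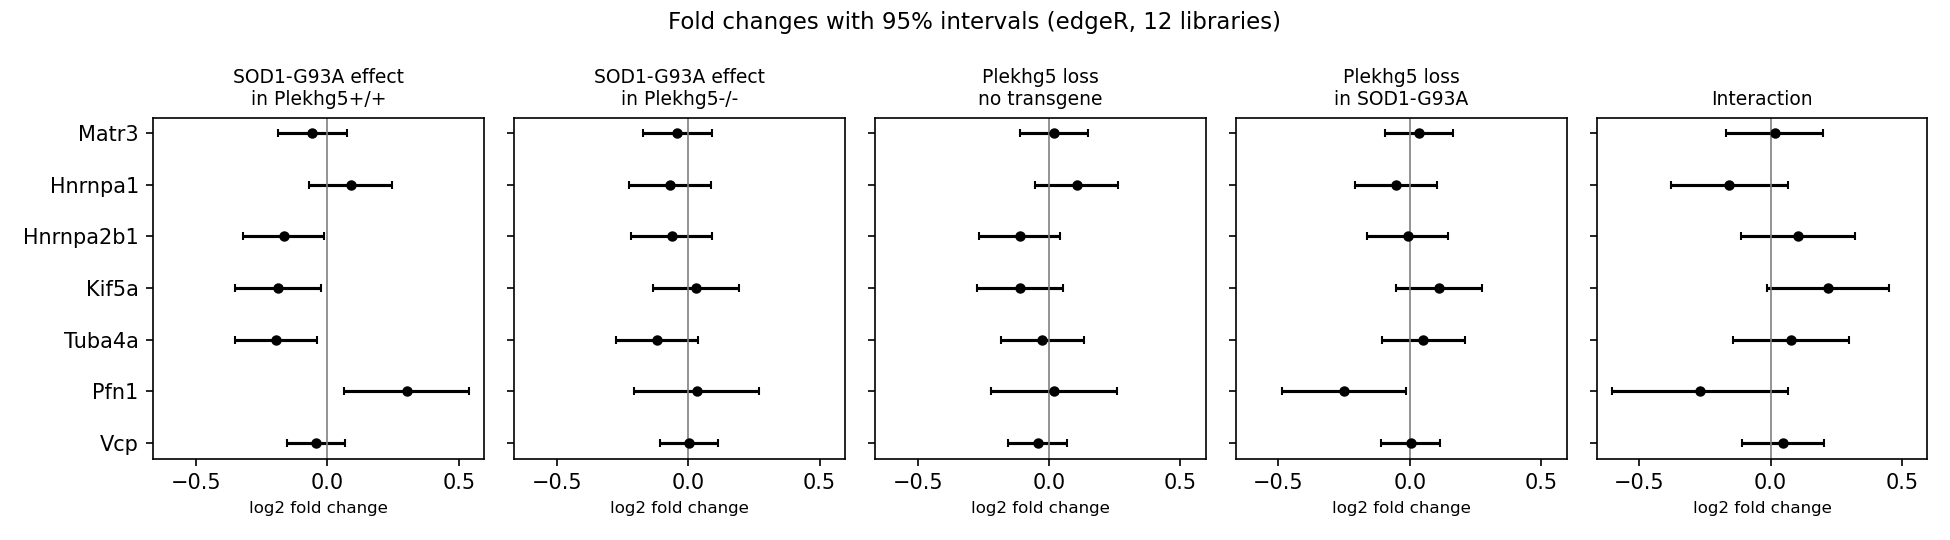
Log2 fold changes (points) with 95% intervals (bars) of the 7 genes in the 5 comparisons, from the edgeR fit of the 12 libraries. The intervals of Pfn1, Tuba4a, Kif5a and Hnrnpa2b1 leave out 0 for the transgene in Plekhg5+/+ mice and that of Pfn1 for Plekhg5 loss in SOD1-G93A mice, before adjustment over all genes.

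The remaining comparisons likewise called 0 of the 7 genes with edgeR and 0 with DESeq2. For the transgene in Plekhg5-/- mice, 0 of the 7 had an unadjusted p under 0.05 against 5.38% of all genes tested, and 0.00496% of all genes passed the adjusted threshold. For Plekhg5 loss without the transgene these values were 0 of 7, 5.32% and 0.0298% (6 genes, and 59 without Plekhg5+/+ library 3). For Plekhg5 loss in SOD1-G93A mice they were 1 of 7 (Pfn1, which was lower, as were 5.05% of all genes tested), 8.64% and 0.0347%, and for the interaction 0 of 7, 9.05% and 0% (0 genes, and 40 without Plekhg5+/+ library 3). The groups of 3 libraries overlapped for each of the 7 genes in the comparisons other than that of the transgene in Plekhg5+/+ mice, whereas 12.5%, 8.71% and 19.5% of all genes tested did not overlap for the transgene in Plekhg5-/- mice and for Plekhg5 loss without and with the transgene. These comparisons share libraries with each other, so their values are not independent.

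Cell type markers moved with some of these differences. In Plekhg5+/+ mice with the transgene, 6 of 6 microglial markers and 1 of 5 astrocytic markers (Gfap) rose by the edgeR test. The summed level of the microglial markers was 193 to 219 CPM in Plekhg5+/+, 212 to 279 in Plekhg5-/-, 375 to 723 in Plekhg5+/+ SOD1-G93A and 276 to 316 in Plekhg5-/- SOD1-G93A libraries, and the highest was library 1 of Plekhg5+/+ SOD1-G93A. The astrocytic sum was 4699 to 4820 CPM in Plekhg5+/+ and 5915 to 9267 CPM in Plekhg5+/+ SOD1-G93A libraries. It was 4927 to 5595 CPM in Plekhg5-/- and 5707 to 5949 CPM in Plekhg5-/- SOD1-G93A libraries, which also lay above the Plekhg5+/+ libraries. Of the 6 motoneuron and 6 general neuronal markers 0 were called, and the fitted value was below 0 for each of the 12. Their sums were 275 to 283 CPM and 8329 to 8466 CPM in Plekhg5+/+ and 201 to 263 CPM and 6376 to 7756 CPM in Plekhg5+/+ SOD1-G93A libraries. They were 272 to 284 CPM and 7845 to 8282 CPM in Plekhg5-/- libraries. In Plekhg5-/- SOD1-G93A libraries they were 225 to 306 CPM and 7064 to 8158 CPM. The general neuronal sum was thus below the Plekhg5+/+ libraries in each other genotype, also without the transgene. Such a sum is weighted to the markers of highest level, however. For Plekhg5 loss without the transgene, 3 of the 6 general neuronal markers had fitted values above 0 and 3 below. Their median log2 fold change was -0.01, and 0 had an unadjusted p under 0.05 by edgeR. Of the 5 oligodendrocyte markers 0 were called (22562 to 26169 CPM against 21914 to 25914 CPM). No marker was at 0 in any library. In bulk tissue, fewer cells of a type and less RNA per cell cannot be told apart, and the part of these markers in the values of Pfn1, Tuba4a, Kif5a and Hnrnpa2b1 was not tested.

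The share of a member within its family does not depend on the scaling of a library. Pfn1 was 12.8, 12.5 and 11.3% of the summed CPM per kb of Pfn1 and Pfn2 in the Plekhg5+/+ libraries and 17.1, 13.6 and 15.4% in the Plekhg5+/+ SOD1-G93A libraries, which did not overlap. In Plekhg5-/- and Plekhg5-/- SOD1-G93A mice the mean share was 12.1 ± 0.687% and 12.99 ± 0.543% (SD, n = 3). Tuba4a was 11.2 ± 0.311% of the alpha-tubulins Tuba1a, Tuba1b, Tuba1c, Tuba4a and Tuba8 in Plekhg5+/+, 10.2 ± 0.731% in Plekhg5-/-, 9.46 ± 0.691% in Plekhg5+/+ SOD1-G93A and 10.5 ± 0.178% in Plekhg5-/- SOD1-G93A mice. Each library of the other 3 genotypes lay below the 3 Plekhg5+/+ libraries in this share. Among Hnrnpa1, Hnrnpa2b1 and Hnrnpa3, the share of Hnrnpa2b1 was 56.3 ± 1.29% in Plekhg5+/+, 53.7 ± 0.814% in Plekhg5-/-, 52.8 ± 0.435% in Plekhg5+/+ SOD1-G93A and 52.7 ± 1.34% in Plekhg5-/- SOD1-G93A mice, and that of Hnrnpa1 was 24.0 ± 0.477, 26.5 ± 1.67, 26.8 ± 0.613 and 26.0 ± 0.908%. The share of Kif5a in Kif5a, Kif5b and Kif5c, in contrast, was 48.7 ± 0.710, 48.3 ± 0.890, 49.4 ± 0.742 and 48.6 ± 1.57%. Kif5b and Kif5c were also lower with the transgene in Plekhg5+/+ mice, with log2 fold changes of -0.21 and -0.23 (adjusted p = 0.113 and 0.162). Over 24 two-sided exact permutation tests of 6 shares in 4 comparisons, 9 reached p = 0.1, the smallest that 3 mice against 3 allow, and the smallest adjusted p was 0.267. This p means only that the 2 groups did not overlap. By level, 8.71 to 20.6% of all genes tested did not overlap in these comparisons, and no such value was computed for shares. The 9 are not separate results, since the comparisons share libraries and the shares of Hnrnpa1 and Hnrnpa2b1 have the same sum. The shares were also chosen after the counts were seen.

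**Figure D4:**
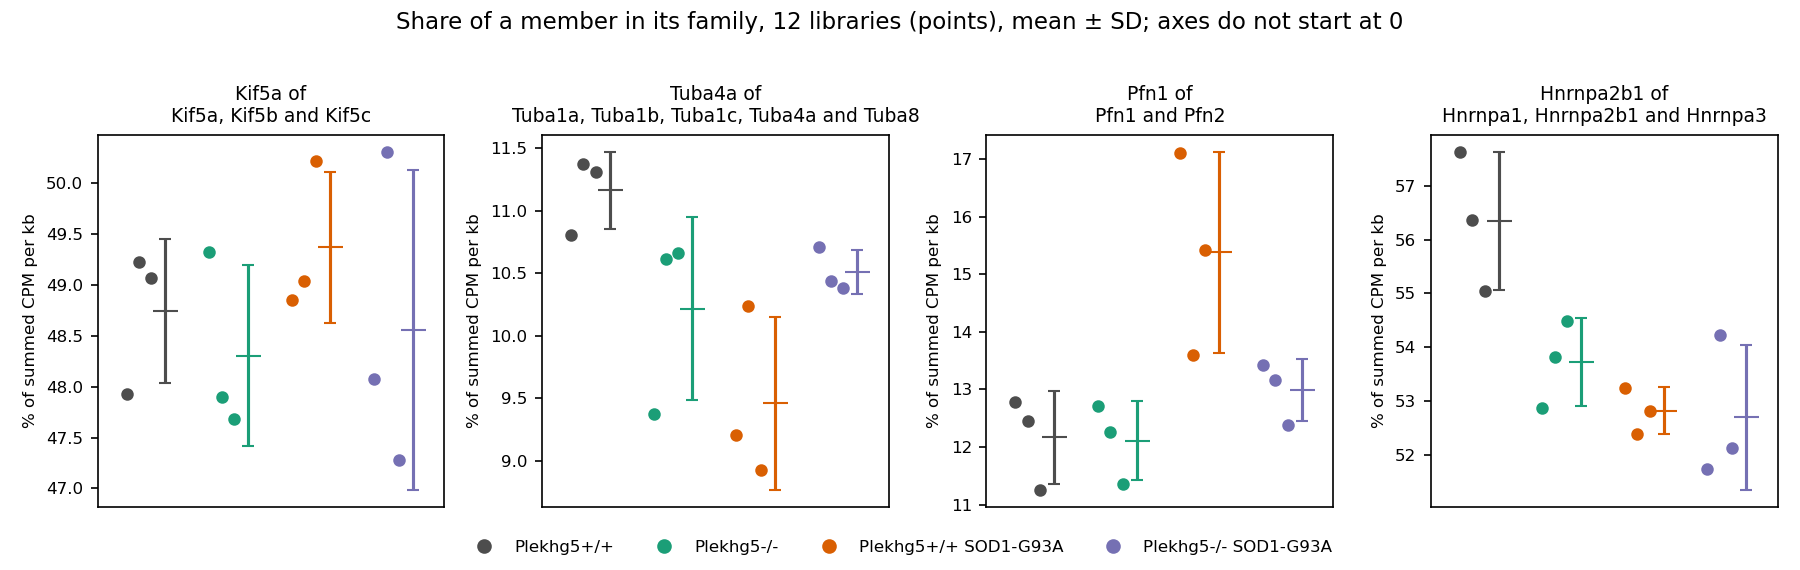
Share of Kif5a, Tuba4a, Pfn1 and Hnrnpa2b1 in the summed CPM per kb of exon of their close relatives, in percent, for the 12 libraries (points) with the mean ± SD of 3 mice per genotype (bars). The axes do not start at 0. The share of Pfn1 is highest in Plekhg5+/+ SOD1-G93A mice and that of Kif5a overlaps between all genotypes.

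The genes around the members were then counted in the comparison of Plekhg5+/+ SOD1-G93A with Plekhg5+/+ mice, in which the median log2 fold change of all genes tested was -0.001. Of the 20155 genes, 10130 had values below 0 and, as given above, 18.2% had an unadjusted p under 0.05 (10.6% higher and 7.51% lower). By adjusted p, edgeR called 2.47% of all genes tested. DESeq2 without a prior called 1159 genes in all. It was run without the filter on low counts, and the number of genes it tested was not counted. The DESeq2 counts of the lists below therefore have no share of all genes beside them, and whether they exceed it was not tested. The counts of the lists are set beside these values as a description, with no test of a list. Of 31 other genes of ALS or related disease, called other ALS genes here, 1 rose and 0 fell, with a median log2 fold change of -0.08 and 20 values below 0. The gene that rose was Grn, which encodes the lysosomal and secreted protein progranulin. Grn had 52.3, 49.4 and 48.5 CPM in Plekhg5+/+ and 198, 87.4 and 84.9 CPM in Plekhg5+/+ SOD1-G93A libraries, so that library 1 was far above the others (log2 fold change 1.30 ± 0.27 SE, edgeR adjusted p = 0.0381). Without that library the log2 fold change was 0.78 (adjusted p = 0.00132). The call was lost when any Plekhg5+/+ library was left out (adjusted p = 0.112, 0.158 and 0.0727 without libraries 1 to 3), when any Plekhg5-/- library was (0.0550, 0.0591 and 0.0614) and without Plekhg5-/- SOD1-G93A library 2 (0.0539). It was also lost without a filter on low counts (0.0947) and with the 2 genotypes alone (0.160), and the range over all alternatives was 0.00132 to 0.160. In Plekhg5-/- SOD1-G93A mice Grn had 75.4, 80.7 and 63.5 CPM, below each library of Plekhg5+/+ SOD1-G93A (log2 fold change -0.76, edgeR adjusted p = 0.517). Of the 31 genes, 8 (25.8%) had an unadjusted p under 0.05, and DESeq2 without a prior called 4.

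In the lists next to Kif5a and Tuba4a, 0 genes were called by edgeR. Of 35 axonal transport genes, 28 had values below 0, the median was -0.09, and 8 (22.9%, against 18.2% of all genes) had an unadjusted p under 0.05, of which 7 were lower. DESeq2 without a prior called 3 of them. Those with the smallest p were the kinesin light chain Klc3 with 0.62 (edgeR adjusted p = 0.0635) and the mitochondrial kinesin adaptor Trak2 with -0.18 (adjusted p = 0.111, and 0.0163 with DESeq2 without a prior). Klc3 was a gene of low level, at 1.67 to 2.00 CPM in Plekhg5+/+ and 2.82 to 2.98 CPM in Plekhg5+/+ SOD1-G93A libraries, and passed the threshold without Plekhg5-/- SOD1-G93A library 1 (adjusted p = 0.0418) and with DESeq2 with a prior (0.0476). Of 19 tubulins 16 were tested, 8 were above and 8 below 0 with a median of 0.02, 3 (18.8%, against 18.2% of all genes) had an unadjusted p under 0.05, and DESeq2 without a prior called 2. The smallest p values belonged to the beta-tubulins Tubb6 with 1.00 (adjusted p = 0.0573) and Tubb1, a tubulin of platelets and megakaryocytes, with 2.64 (adjusted p = 0.0629). Tubb6 passed the threshold without Plekhg5+/+ SOD1-G93A library 2 or 3 (adjusted p = 0.0409 and 0.0444), with Y-linked transcripts as a covariate (0.0403) and with DESeq2 without a prior (0.00636). Tubb1 was at most 0.232 CPM in Plekhg5+/+ libraries and 2.08, 0.363 and 0.810 CPM in Plekhg5+/+ SOD1-G93A libraries, and passed the threshold without Plekhg5-/- SOD1-G93A library 1 or Plekhg5+/+ SOD1-G93A library 2 (adjusted p = 0.0440 and 0.0184), with the Y-linked covariate (0.0163) and with DESeq2 without a prior (0.00965). Most transport genes thus had fitted values on the same side of 0 as Kif5a, while the tubulins were evenly split.

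Of 22 actin monomer and assembly factors 21 were tested. By edgeR 0 were called, 14 lay above 0 with a median of 0.08, and 8 (38.1%, against 18.2% of all genes) had an unadjusted p under 0.05, of which 6 were higher, while DESeq2 without a prior called 3. Those with the smallest p resembled Pfn1 in direction. Actb, the beta-actin that Pfn1 binds, had 638 to 658 CPM in Plekhg5+/+ and 770 to 854 CPM in Plekhg5+/+ SOD1-G93A libraries (log2 fold change 0.34, edgeR adjusted p = 0.0796). Tmsb4x had 360 to 501 CPM and 511 to 639.5 CPM (0.47, adjusted p = 0.0964). Without library 1 of Plekhg5-/- the adjusted p was 0.0253 for Actb and 0.0463 for Tmsb4x, and with DESeq2 without a prior it was 0.0226 and 0.0275. Actb also passed the threshold with the Y-linked covariate (adjusted p = 0.0293). Tmsb4x was 405 to 438 CPM in Plekhg5-/- SOD1-G93A mice, lower than in each Plekhg5+/+ SOD1-G93A library (log2 fold change -0.45, adjusted p = 0.431).

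Of 25 other hnRNP genes 0 were called by edgeR and 2 by DESeq2 without a prior, with a median of 0.02 and 7 (28.0%) at an unadjusted p under 0.05. Hnrnpm, a splicing regulator, had -0.27 (adjusted p = 0.107, 0.0451 without Plekhg5+/+ library 3 and 0.0397 with DESeq2 without a prior), and Hnrnpul1, which takes part in the response to DNA damage, had 0.21 (adjusted p = 0.133). Of 26 Vcp cofactors 0 were called by edgeR and 1 by DESeq2 without a prior, with a median of -0.02 and 2 (7.69%) at an unadjusted p under 0.05. The smallest p was that of Ubxn7, an adaptor that links Vcp to ubiquitin ligases, with -0.17 (adjusted p = 0.114, and 0.0349 with DESeq2 without a prior). Derl2, which retrieves proteins from the endoplasmic reticulum with Vcp, had its smallest p for Plekhg5 loss without the transgene (-0.25, adjusted p = 0.882). In the other 4 comparisons edgeR and DESeq2 called 0 genes of each of the 6 lists. At an unadjusted p under 0.05, 5 of 35 transport genes were higher and 1 lower and 3 of 21 actin factors were lower and 2 higher when Plekhg5 was lost in SOD1-G93A mice. These were 17.1% and 23.8% of the lists, against 8.64% of all genes tested (3.59% higher and 5.05% lower). By the same measure there were 3 of 16 tubulins (18.8%), all lower, and 4 of 31 other ALS genes (12.9%). Among hnRNP genes there were 2 of 25 (8%), and among Vcp cofactors 0 of 26. In that comparison 6 of 6 microglial markers were lower at an unadjusted p under 0.05, and the fitted values of the 6 motoneuron and 6 general neuronal markers were each above 0. By adjusted p 0 of these markers were called, and their part in the values of the lists was not tested.

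**Figure D5:**
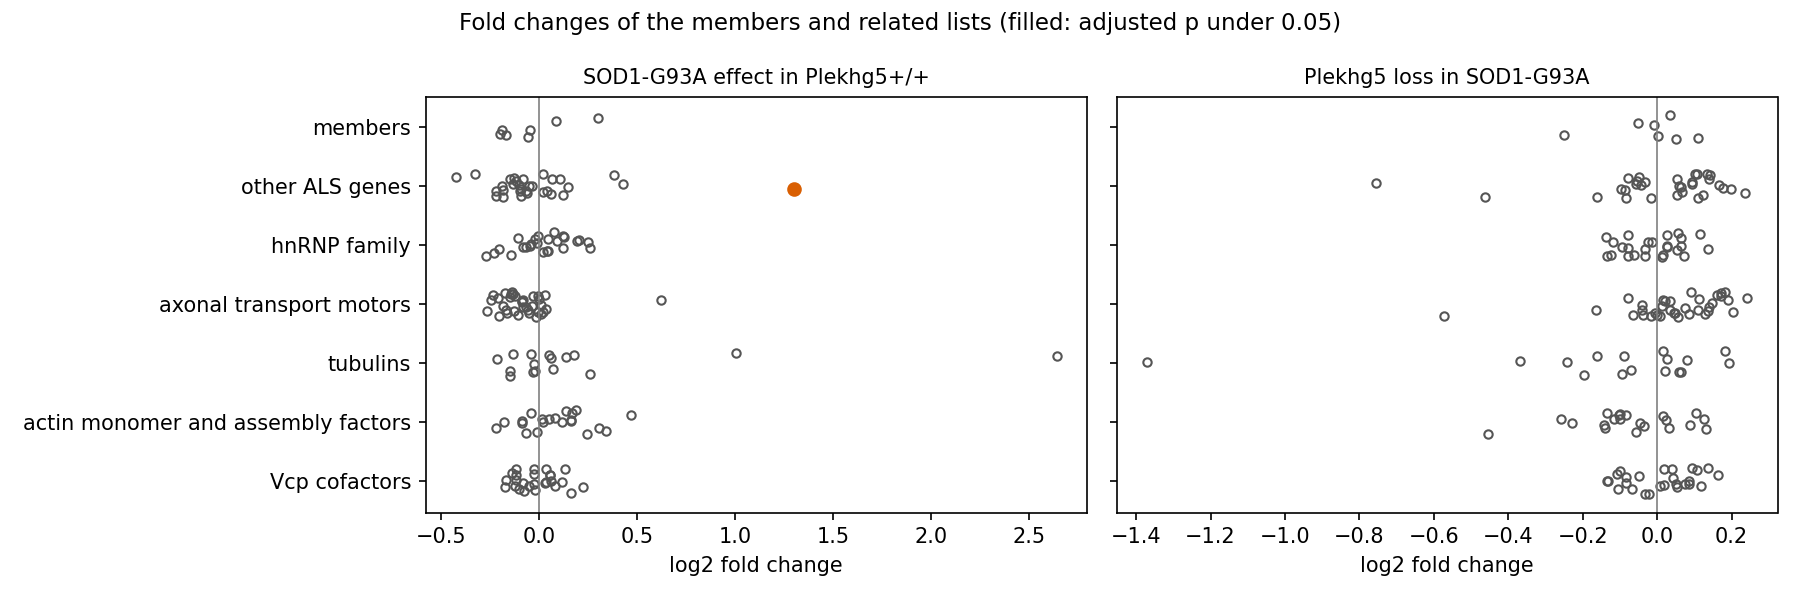
Log2 fold change of each gene (points) of the 7 members and the 6 related lists, for the transgene in Plekhg5+/+ mice (left) and for Plekhg5 loss in SOD1-G93A mice (right). The filled point is Grn, the one gene with an adjusted p under 0.05.

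Across the 12 libraries the members did not vary as a unit, which is given here as a description without a test because the libraries share genotypes. Pearson's r of log2 CPM was highest for Hnrnpa2b1 with Vcp (0.727) and Hnrnpa1 with Pfn1 (0.716), and lowest for Kif5a with Pfn1 (-0.696). The genes most like each member were then sought among 11190 or 11191 genes, depending on the member, with a mean of at least 10 CPM. The highest of so many values over 12 libraries is high by selection alone. How high it would be for unrelated genes was not tested, so the genes named are a description. For Pfn1 they were the ribosomal protein Rplp0 (r = 0.981, Spearman's rho = 0.965), the pseudogene Gm8730 (0.974 and 0.944) and the glutathione peroxidase Gpx1 (0.963 and 0.937). For Tuba4a they were Tpd52l1 (0.942 and 0.923), Tmx2 (0.941 and 0.916) and Mobp, a myelin gene of oligodendrocytes (0.939 and 0.930). Kif5a was closest to Brox (0.904 and 0.874), the endosomal Rbsn (0.892 and 0.790) and its own relative Kif5b (0.885 and 0.853). For the RNA-binding members these were Fibp (0.934 and 0.818), Tprn (0.907 and 0.832) and Hdgf (0.904 and 0.909) with Hnrnpa1, Pex5 (0.932 and 0.916), Dpf1 (0.911 and 0.755) and Dpysl2 (0.902 and 0.762) with Hnrnpa2b1, and Fgfr1op2 (0.919 and 0.944), Apoo-ps (0.914 and 0.776) and Fbxo9 (0.910 and 0.790) with Matr3. Vcp was closest to Vcp-rs (0.933 and 0.860), with which it shares reads, followed by Eif3b (0.925 and 0.748) and Slu7 (0.920 and 0.839).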

How the data were processed

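Spinal cord RNA of 12 mice was analysed, 3 for each of 4 genotypes given by the labels. According to the methods of the study, stranded poly-A libraries were sequenced in 75-nt single reads, which were trimmed with Cutadapt 2.4, mapped with STAR 2.7.2b to GRCm38.p6 plus the human SOD1 cDNA, and counted per gene with featureCounts 1.6.4. Multi-mapped and overlapping reads were counted as fractions, so the values that the authors deposited are estimated counts per gene, with no normalization or filter. Each library was matched by its name, and 0 columns were left without a sample.

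Counts were rounded to whole numbers and fitted with edgeR 4.0.16 in R 4.3.3 (filterByExpr, TMM, robust quasi-likelihood) over the 4 genotypes together. Adjustment for multiple testing (Benjamini-Hochberg) was over the 20155 genes tested. CPM values are deposited counts over the TMM-scaled library size, and log2 CPM has a prior count of 2. Exon lengths and coordinates come from the annotation in the table, and sequences from GENCODE transcripts. Family shares were compared with exact permutation tests. DESeq2 1.42.0 and other alternatives are given in the closing section, and scripts were tested on simulated data. The labels do not tie a replicate number to a shared litter or batch, so the numbers were not taken as pairs in the main fit. The deviations of libraries with equal numbers correlated at -0.163 to 0.318, above 0.1 in 5 of 18 pairs. For Hnrnpa1 and Vcp, library 1 was the highest of its genotype in all 4 genotypes. An effect shared by libraries of equal number therefore remains possible, and a fit with the number as a block is given in the closing section. Libraries of a genotype differed by more than counting noise (chi-square per degree of freedom 5.67 to 27.4). The mice are separate animals. Y-linked transcripts were present in 3, 2, 2 and 1 libraries of Plekhg5+/+, Plekhg5-/-, Plekhg5+/+ SOD1-G93A and Plekhg5-/- SOD1-G93A, so sex was not balanced.

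The members and lists were chosen with earlier results of these data known, and the family shares, sequence pairs and the sums with related loci were chosen after the counts were seen. Named in each list were up to 4 called genes with the smallest p or, with none called, the 2 with the smallest unadjusted p over the comparisons; the 3 highest levels per kb in 4 of the lists; and the 3 genes most like each member. Kif5b, Kif5c and Pfn2 were named as relatives. Some sequences are not reported here.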

Additional observations from a re-analysis of the deposited data

How the results depend on the processing

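In each of the 5 comparisons the count of members called stayed at 0 under every alternative run. In the comparison of the transgene in Plekhg5+/+ mice, the number of genes called among the actin factors was 3 with DESeq2 with or without a prior, 2 with the replicate number as a block and 1 with Y-linked transcripts as a covariate, and 0 to 2 with single libraries left out. For transport genes it was 4 and 3 with DESeq2 with and without a prior and 0 to 1 with libraries left out, for hnRNP genes 2 and 2 and 0 to 1, and for Vcp cofactors 1 and 1. For other ALS genes it was 4 with either form of DESeq2, 2 with DESeq2 size factors in edgeR, 0 without a filter on low counts, 0 with the 2 compared genotypes alone, and 0 to 2 with libraries left out. For tubulins it was 2 with either form of DESeq2, 2 with the replicate block, 2 with the Y-linked covariate and 0 to 2 with libraries left out. The cause of these changed counts was not tested. Over all genes, the count of 498 was 1190 and 1159 with DESeq2 with and without a prior, 631 with the replicate block, 3 with the 2 genotypes alone, and 2 to 771 with libraries left out (4 and 2 without Plekhg5+/+ libraries 1 and 2, 223 and 771 without Plekhg5+/+ SOD1-G93A libraries 1 and 2, 323 without Plekhg5-/- library 2, 313 without Plekhg5-/- SOD1-G93A library 2). DESeq2 with and without a prior called 41 and 45 genes for the transgene in Plekhg5-/- mice, 32 and 34 for Plekhg5 loss without and 114 and 72 with the transgene, and 112 and 95 for the interaction. With libraries left out, the 6 genes for Plekhg5 loss without the transgene became 59 without Plekhg5+/+ library 3, and the 0 for the interaction became 40 without that library and 1 without library 3 of either SOD1-G93A genotype. The 7 for Plekhg5 loss with the transgene became 4 without library 2 of either SOD1-G93A genotype, and the 1 for the transgene in Plekhg5-/- mice became 3, 5 and 9 without Plekhg5-/- library 2, Plekhg5+/+ library 3 and Plekhg5+/+ SOD1-G93A library 1. With the 2 genotypes alone, 20 and 11 were called for the transgene in Plekhg5-/- mice and Plekhg5 loss in SOD1-G93A mice.

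Signs turned only among uncalled values near 0. Hnrnpa2b1 for Plekhg5 loss in SOD1-G93A mice was 0.00146 with the Y-linked covariate and -0.0459 to 0.035 with libraries left out. Vcp for the transgene in Plekhg5-/- mice was -0.00231 with at least 10 counts in every library, -0.00239 without a filter, -0.00292 with the 2 genotypes alone and -0.0193 to 0.0129 with libraries left out. With libraries left out, Kif5a for the transgene in Plekhg5-/- mice was -0.00928 to 0.0654, Matr3 -0.0314 to 0.0743 for Plekhg5 loss without the transgene and -0.0398 to 0.0661 for the interaction, Pfn1 -0.0846 to 0.136 for Plekhg5 loss without the transgene and -0.0354 to 0.131 for the transgene in Plekhg5-/- mice, Tuba4a -0.0805 to 0.00375 and -0.0196 to 0.0981 for Plekhg5 loss without and with the transgene, and Vcp -0.00358 to 0.0168 for Plekhg5 loss with the transgene. The replicate block changed no call of a member. Under the block Tubb6, Tubb1, Actb and Tmsb4x passed the threshold (adjusted p = 0.0179, 0.0236, 0.0399 and 0.0246).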
